A study of Homo sapiens with 30 samples.

Results

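RARB encodes retinoic acid receptor beta, a ligand-activated transcription factor, and its locus was examined here for open chromatin in 10 stages of neural ectoderm differentiation. The members are the regions with an ATAC-seq peak in the gene or within 50 kb on either side, chr3:24779321-25647932 of GRCh38. They came to 194 of the 493444 regions that the peaks of all 10 lists formed after overlapping peaks were merged, and 183 of the 194 had their centre inside the gene. The window also takes in part of TOP2B past the gene's end (chr3:25597905-25664907), the antisense transcript RARB-AS1 (chr3:25383105-25384927), 3 other long non-coding RNAs, an snRNA and 5 pseudogenes. RARB was selected on measured values of these lists. These were its many regions with a peak in the pNE_H list alone and its difference between the pNE and aNE lists. The counts of open regions below are therefore a description and carry no test.

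Retinoic acid receptors bind DNA as heterodimers with retinoid X receptors, at direct repeats of a hexamer called retinoic acid response elements. Retinoic acid made by the trunk mesoderm gives posterior identity to the neural tube, the hindbrain in particular. RARB is itself a direct target of the receptors: its internal RARβ2 promoter carries a textbook response element, a direct repeat with a spacer of 5 bases (DR5).

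OmniATAC-seq, an assay that reads open chromatin from the places where Tn5 transposase can cut, was performed on 50000 cells per library of H1, a wild-type human embryonic stem cell line. The labels give 30 libraries in 10 groups of 3 biological replicates, all of this 1 line. The deposited data used here are 10 lists of peak positions, 1 per group, with no score and no value per library. Thus no count below has a replicate error, read depth is unknown, and the differences compare 10 lists rather than conditions.

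Undifferentiated cells (hPSC) were taken on day 0. Definitive ectoderm (DE), taken on day 1, had spent 24 hours with the TGFβ receptor inhibitor A8301 at 1 µM, the MEK inhibitor trametinib at 250 nM, the WNT secretion inhibitor C59 at 1 µM and the BMP receptor inhibitor LDN193189 at 100 nM. From day 1 to day 2, anterior neural ectoderm (aNE) received A8301, LDN193189, C59 and thiazovivin. Posterior neural ectoderm (pNE) received A8301, LDN193189 and thiazovivin with the retinoic acid receptor agonist TTNPB at 50 nM, FGF2 at 20 ng/mL and the tankyrase inhibitor XAV939 at 1 µM. On day 4 each origin was collected after a telencephalon, midbrain or hindbrain medium, as aNE_T, aNE_M and aNE_H and as pNE_T, pNE_M and pNE_H. The composition of the midbrain and hindbrain media is not given in the sources used here, so whether a retinoid was still present on day 4 is not known here. Cells for day 2 were plated at 37500 per cm2, and cells for day 4 at 75000 per cm2 in the anterior and at 150000 per cm2 in the posterior protocol. Density therefore differs between the days and, on day 4, between the origins, and cannot be told apart from them. All groups other than hPSC share the DE step.

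As a check of the labels, POU5F1, the pluripotency factor OCT4, had 13 open regions in hPSC, 15 in DE and 4 to 8 in the day 4 lists, counted in the same way. HOXB1, a hindbrain gene, had 19 to 22 in the aNE-derived day 4 lists and 28 to 33 in the pNE-derived ones. Other markers separated the groups less. NANOG, a pluripotency gene, had 19 in hPSC and 6 to 16 on day 4. GBX2, a hindbrain gene, had 13 to 19 in both sets of day 4 lists. Among the forebrain genes, OTX2 had 16 to 17 in the aNE-derived and 11 to 17 in the pNE-derived lists, SIX3 18 to 22 and 16 to 25, and HESX1 10 to 15 and 11 to 14.

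RefSeq gives RARB 4 transcription starts on the forward strand, and only the first and the third lay under peaks. The sequences of these open starts are shown because they differ in base composition and because the third holds the response element. Each runs 5′ to 3′ over the 250 bases before the start, and the single final capital is the base at the start (RefSeq, GRCh38.p14). The run of capitals in start 3 is the DR5 match.
Start 1, chr3:24829071-24829321: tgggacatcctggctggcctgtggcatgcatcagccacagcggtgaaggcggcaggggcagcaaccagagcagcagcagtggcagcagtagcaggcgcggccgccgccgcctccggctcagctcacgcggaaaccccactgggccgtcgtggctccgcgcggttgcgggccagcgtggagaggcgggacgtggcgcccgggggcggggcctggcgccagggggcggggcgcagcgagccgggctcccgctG
Start 3, chr3:25428013-25428263: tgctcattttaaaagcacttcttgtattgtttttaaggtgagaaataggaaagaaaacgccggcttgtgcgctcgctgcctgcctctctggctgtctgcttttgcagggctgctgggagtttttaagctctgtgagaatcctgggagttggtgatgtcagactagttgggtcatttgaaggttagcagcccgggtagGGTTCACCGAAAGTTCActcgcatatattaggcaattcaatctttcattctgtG

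Start 1 (chr3:24829321) is the 5′ end of the gene, and its window of 300 bases, from 250 before to 50 after the start, has a GC content of 76.3% with 33 CpG dinucleotides. Start 3 (chr3:25428263) lies 598.9 kb farther in, at the RARβ2 promoter, with a GC content of 46.7% and 7 CpGs. Start 2 (chr3:25340802) and start 4 (chr3:25458310) are AT-rich, with 40.0% and 30.3% GC and 1 and 2 CpGs. The windows of starts 1 and 3 had a peak in all 10 lists, as did 53.2% of the 35116 promoter windows of the genome. The windows of starts 2 and 4 had a peak in no list, as did 30.7% of all windows. The region nearest to start 2, chr3:25340022-25340447, ended 355 bp upstream of it and was open in pNE_T and pNE_H only. The region nearest to start 4, 2347 bp away at chr3:25455363-25455963, was open in all 10 lists.

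The DR5 match of start 3, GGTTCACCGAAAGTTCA at chr3:25428210-25428226, spans positions -53 to -37 relative to the start. It lay inside the peak of all 10 lists, hPSC and the aNE-derived lists included. It was the only match in the 4 RARB windows. The search allowed AGGTCA as the consensus hexamer, its variant AGTTCA, the G-rich form GGGTCA or the form GGTTCA at either position of the repeat. Both strands were read, with a spacer of 1 (DR1), 2 (DR2) or 5 bases (DR5), and matches of the 3 kinds may overlap. A DR5 was found in 31 (0.0883%) of the 35116 windows of the same length, a DR1 in 46 (0.131%), a DR2 in 14 (0.0399%) and any of them in 91 (0.259%). Regions away from the starts were not searched, because no genome sequence was used here.

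At start 3 the lists differed in how far the peak reached and not in whether there was one. The peak over start 3 was 615 bp wide in hPSC, 423 bp in DE, 680 bp in aNE and 1055 bp in pNE. Among aNE derivatives it measured 684 bp (aNE_T), 885 bp (aNE_M) and 701 bp (aNE_H), against 1248 bp (pNE_T), 1213 bp (pNE_M) and 1177 bp (pNE_H) in the pNE-derived lists. The peaks of pNE and its 3 derivatives were thus all wider than those of the other 6 lists. The extra width lay mainly downstream. The last base of the peak was 241 bp past the start in hPSC, 152 in DE, 158 in aNE, 162 in aNE_T, 209 in aNE_M and 155 in aNE_H. In pNE it was 545 bp past the start, and in pNE_T, pNE_M and pNE_H 627, 601 and 587 bp. The shortest reach of the 4 posterior lists was 2.26 times the longest of the other 6. DE had a separate, second peak from 432 to 586 bp downstream, over part of the ground that the posterior peaks covered.

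The same split was counted over all starts. Among 17375 annotated starts inside a peak of every list, 105 (0.604%) had peaks wider in pNE and its 3 derivatives than in all other 6 lists, and 126 (0.725%) had peaks that reached farther downstream in those 4. Of these starts, 1 had a downstream ratio above that of RARB start 3, that of the uncharacterised gene LOC105375971 with 5.27. This measure was chosen after the peaks of start 3 had been seen. Its 6-against-4 split is no test either, since the 3 derivatives descend from pNE cells.

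**Figure D1:**
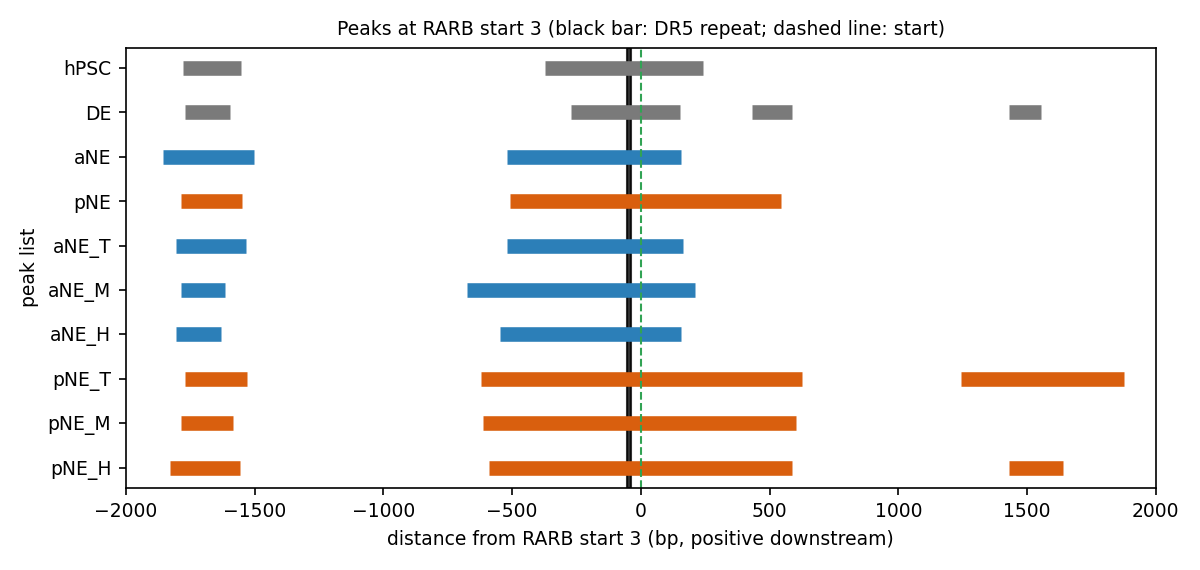
Peaks of the 10 lists around RARB start 3, in bp from the start with downstream positive (grey: hPSC and DE; blue: aNE and its derivatives; orange: pNE and its derivatives). The black bar marks the DR5 match, which lies inside a peak of every list, and the orange peaks over the start reach 545 to 627 bp downstream while the others end by 241 bp.

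Start 1 showed no such split. Its peak was 1403 bp wide in hPSC, 1209 bp in DE and 1691 bp in aNE, beside 1626 bp in pNE. The aNE_T peak had 1646 bp, the aNE_M peak 1746 bp and the aNE_H peak 1276 bp, compared with 1327 bp for pNE_T, 1336 bp for pNE_M and 1528 bp for pNE_H. Anterior and posterior widths overlapped. Among promoters with a peak in all 10 lists whose start lay inside a peak of the list in question (18044 to 18390 per list), start 1 lay between the percentiles 58.4 and 84.9 by width, while start 3 lay between 5.54 and 18.4 in the 6 other lists and between 35.8 and 57.2 in the 4 posterior ones. Peaks over these starts had list medians of 1119 to 1310 bp.

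Across the locus, more regions were open in the posterior lists. The window held 35 open regions in hPSC, 51 in DE and 36 in aNE, beside 58 in pNE. On day 4 the anterior-derived numbers were 48 (aNE_T), 46 (aNE_M) and 49 (aNE_H), and the posterior-derived ones 81 (pNE_T), 75 (pNE_M) and 132 (pNE_H). Every posterior list was above every other list, with pNE closest to DE. The base pairs under peaks followed the same order at the top, from 46015 in pNE_H, 30681 in pNE_T and 26421 in pNE_M through 22403 in pNE to 13932 to 20814 in the other 6 lists.

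The lists differ in length, and pNE_H is the longest, with 313095 peaks on chromosomes 1 to 22, X and Y against 167792 to 247642 in the others. Per 100000 open regions of its own list, the RARB window held 17.5 in hPSC, 22.8 in aNE and 30.0 in pNE, with DE between hPSC and aNE. This rate was 25.6 for aNE_T, 22.4 for aNE_M and 25.6 for aNE_H, compared with 39.7 for pNE_T, 37.1 for pNE_M and 43.9 for pNE_H. On this scale the lead of pNE_H over pNE_T and pNE_M was small, and all 4 posterior lists were still above the other 6. In pNE_H, 68.0% of the window's regions were open, compared with 60.9% of all regions, and in pNE_T 41.8% compared with 41.3%. All other lists had a lower share in the RARB window than in the genome, for example aNE_H with 25.3% against 38.9% and hPSC with 18.0% against 40.6%.

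**Figure D2:**
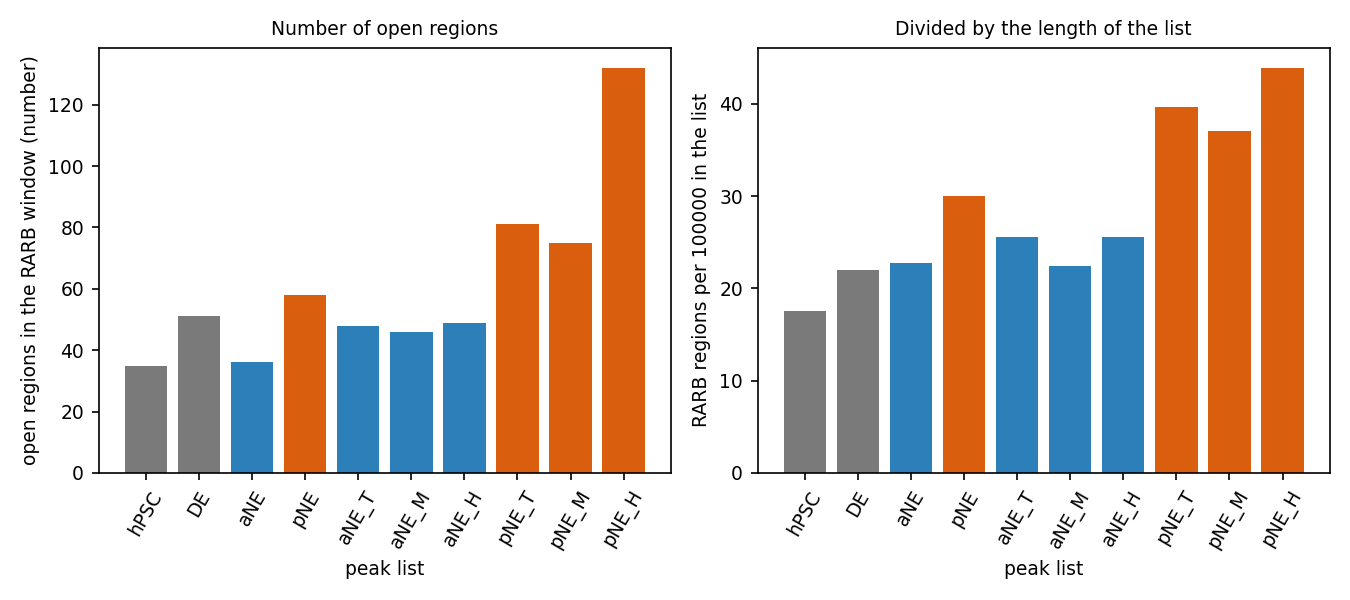
Open regions in the RARB window in each list, as a number (left) and per 100000 open regions of that list (right), in the colours of the stages (grey: hPSC and DE; blue: aNE and its derivatives; orange: pNE and its derivatives). The number is 132 in pNE_H and at most 81 elsewhere, while per list length pNE_T (39.7), pNE_M (37.1) and pNE_H (43.9) lie close together above the anterior lists.

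The 2 origins were compared within each medium. In the telencephalon medium 34 regions were open in both lists, 47 in pNE_T only and 14 in aNE_T only, a ratio of open regions of 1.69 against 1.09 over the genome. In the midbrain medium 38 were shared, 37 were open in pNE_M only and 8 in aNE_M only (ratio 1.63, genome 0.984). In the hindbrain medium 42 were shared, 90 were open in pNE_H only and 7 in aNE_H only (ratio 2.69, genome 1.57). Summed over the 3 media, the posterior-derived lists held 288 open regions and the anterior-derived ones 143, a ratio of 2.01 against 1.21 over the genome. Without both hindbrain lists it was 156 against 94, a ratio of 1.66 against 1.03, so an excess remained where the long pNE_H list had no part.

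The origins were also compared on day 2, where pNE had 58 open regions and aNE 36, a ratio of 1.61 against 1.22 over the genome. Of the window's regions, 27 (13.9%) had a pNE peak and no aNE peak, the pattern of 12.7% of all regions, and 5 (2.58%) in aNE and not in pNE, the pattern of 5.54%. The first share is near the background and the second is below it. Where peaks had to cover 50% of a region, the counts were 15 and 7. Of the 27, 15 were open again in pNE_T, 16 in pNE_M and 21 in pNE_H, which is 55.6%, 59.3% and 77.8% of them. Over the genome 41.5%, 48.0% and 72.9% of such regions were open in those lists. The opposite held for the anterior derivatives, where aNE_T had a peak at 7 of the 27 (25.9%, against 38.1% over the genome), aNE_M at 10 (37.0% against 63.9%) and aNE_H at 11 (40.7% against 60.8%). Of the 5 aNE regions without a pNE peak, 3 were open in aNE_T and 0 in pNE_H, against 49.2% and 34.2% over the genome. Each of aNE_M, aNE_H, pNE_T and pNE_M was open at 1 of the 5, against 32.1%, 20.1%, 26.0% and 19.3%. These 5 regions are too few to show a split by origin.

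A set of 8 regions was open in pNE and in all 3 of its derivatives but not in aNE, 4.12% of the window against 3.45% of all regions. Only chr3:25228689-25229214, 526 bp wide and 399.6 kb into the gene, was open in these 4 lists and no other. Its peaks covered 196 bp in pNE, 450 in pNE_T, 280 in pNE_M and 526 in pNE_H. The region nearest to start 3 among the 8, chr3:25437225-25438346, lies 9.5 kb downstream of it and was also open in aNE_H. There the peaks covered 217 bp in pNE, 291 in aNE_H, 224 in pNE_T, 761 in pNE_M and 1097 in pNE_H. The region chr3:25336553-25336977, 507.4 kb into the gene, had the same pattern of 5 lists. The other 5 were open in 6 or 7 lists: chr3:24986705-24987148, chr3:25009492-25010081, chr3:25027603-25028305, chr3:25214070-25214359 and chr3:25387340-25388024. So most of the day 2 posterior regions that persisted in all 3 media were also open in an aNE-derived list or earlier.

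Posterior patterns on day 4 were more frequent than in the genome. In the window, 108 regions (55.7%) were open in at least 1 posterior-derived day 4 list and in no anterior-derived one, against 29.9% of all regions. The reverse pattern held for 10 (5.15%), against 10.7%. With the stages before day 4 also required to be closed, 92 regions (47.4%) were open in posterior-derived lists alone, against 24.4%, and 4 (2.06%) in anterior-derived lists alone, against 5.23%. The 92 are 85.2% of the 108, near the 81.4% over the genome. Of the 92, 43 were open in pNE_H only, 16 in pNE_T only and 9 in pNE_M only. RARB was selected for the 43, so the shares of the 92 and the 108 are partly fixed by the selection. A further 12 were shared by pNE_M and pNE_H, 9 by pNE_T and pNE_H, 1 by pNE_T and pNE_M and 2 by all 3. Sharing was no more frequent than elsewhere, with 26.1% of the 92 in more than 1 of the lists and 27.5% over the genome. The pattern of the 108 was also frequent at some other protein-coding genes of 0.8 to 1.2 times the length of RARB. It held for 64 of 122 regions at FRMPD4, 94 of 189 at NLGN1 and 85 of 172 at FAT3, but for 19 of 123 at DOCK3. These examples were picked after their values had been seen.

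The pNE_H list was among those that RARB was selected on, beside pNE and aNE. It alone was open at 43 regions of the window (22.2%), against 10.6% of all regions, and these were 32.6% of its own open regions in the window, against 17.4% over the genome. The shares of exclusive regions of pNE_T (16 regions, 19.8% against 8.36%) and pNE_M (9 regions, 12.0% against 8.84%) were also above their genome values. The same held for DE (8 regions, 15.7% against 11.6%), pNE (2 regions, 3.45% against 2.12%) and aNE (1 region, 2.78% against 1.6%). The shares were lower than in the genome for hPSC (3 regions, 8.57% against 11.4%) and aNE_T (1 region, 2.08% against 3.38%). They were also lower for aNE_H (1 region, 2.04% against 4.7%) and aNE_M (0 regions, against 3.07%). With each list cut to its widest 167792 peaks, the length of the shortest list, 13 pNE_H-only regions were left in the window, 9.92% of 131 regions against 4.0% over the genome. In the same lists of equal length pNE_H had 66 open regions, pNE_T 61 and pNE_M 58, and aNE_T, aNE_M and aNE_H had 41, 38 and 38.

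Most of the regions open in pNE_H had no earlier peak. Of its 132, 50 (37.9%) were open in pNE, against 55.2% over the genome, and 56 (42.4%) were open in any of hPSC, DE, aNE and pNE, against 65.1%. The remaining 76 (57.6%, against 34.9%) first had a peak on day 4. They include the 43 pNE_H-only regions, which have no earlier peak by definition and for which RARB was selected. The excess over the genome is therefore partly fixed by the selection. Of these 76, 28 (36.8%, against 41.4%) were also open in pNE_T or pNE_M and 10 (13.2%, against 19.8%) in an anterior-derived list.

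**Figure D3:**
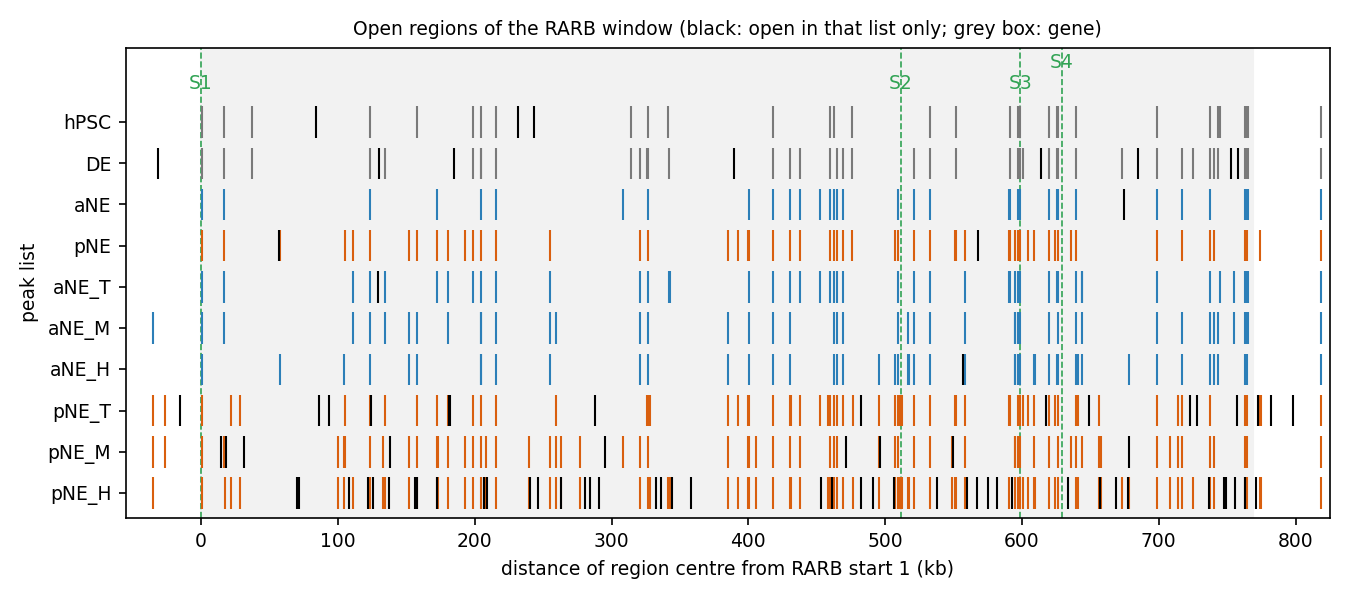
Map of the open regions of the RARB window, 1 row per list, by the distance of the region's centre from start 1 in kb (grey box: gene; dashed lines S1 to S4: annotated starts; black ticks: regions open in that list only; blue: aNE and its derivatives; orange: pNE and its derivatives). The 43 black ticks of pNE_H run from 70.2 to 771.4 kb, with none in the short stretch between starts 3 and 4.

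The pNE_H-only regions were spread along the gene rather than gathered at a start. Exon positions were not used here. The 43 lay between 70.2 and 771.4 kb from start 1, 42 of the 43 inside the gene and 1 within 1 kb of the end of an annotated gene. Neighbours were a median of 11.1 kb apart (0.392 to 95.2 kb). Between starts 1 and 2 there were 27, or 5.28 per 100 kb, between starts 2 and 3 there were 6 (6.86 per 100 kb), and from start 4 to the gene's end 9 (6.45 per 100 kb). The 30.05 kb between starts 3 and 4 held none of its 10 merged regions (33.3 per 100 kb, the densest stretch). With 22.2% of the window's regions pNE_H-only, 0 of 10 says little. The 50 kb bins that begin 0 and 400 kb from start 1 also held 0. The flank before the gene held 0 and the flank after it 1.

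In width the pNE_H-only regions were small, from 109 to 504 bp with a median of 166 bp, beside 165 bp for all pNE_H-only regions of the genome. The other 89 regions open in pNE_H had a median of 337 bp under pNE_H peaks. The narrowest peak that each list contains differed, 109 bp in pNE_H, 114 in pNE_M and 115 in pNE_T against 122 to 126 bp in the anterior-derived lists. Of the 43, 9 (20.9%, against 24.0% over the genome) were below 126 bp and so narrower than any peak of aNE_H. The part of this difference between the lists in the count was not tested. The 5 widest were chr3:24966193-24966696 (504 bp), chr3:24900377-24900753 (377 bp), chr3:25311574-25311950 (377 bp), chr3:25389182-25389532 (351 bp) and chr3:25320203-25320547 (345 bp). All lie between starts 1 and 3, and the fourth of them is 560.0 kb into the gene.

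Just outside the selection were 28 regions open in pNE_H and in exactly 1 other list. That list was pNE_M for 12, pNE_T for 9, aNE_H for 3, DE for 2, and hPSC and aNE_T for 1 each. It was aNE, pNE or aNE_M for 0, and over the genome these lists had shares of only 0.857%, 4.73% and 6.75%. The shares of aNE_H, DE, hPSC and aNE_T were 10.7%, 7.14%, 3.57% and 3.57%, against 7.67%, 6.46%, 5.34% and 3.26%. With 28 regions these small counts are near the background. The share with pNE_M, 42.9%, was above the 27.3% over the genome, that with pNE_T, 32.1%, was below the 37.7%, and both together came to 75.0% against 64.9%.

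**Figure D4:**
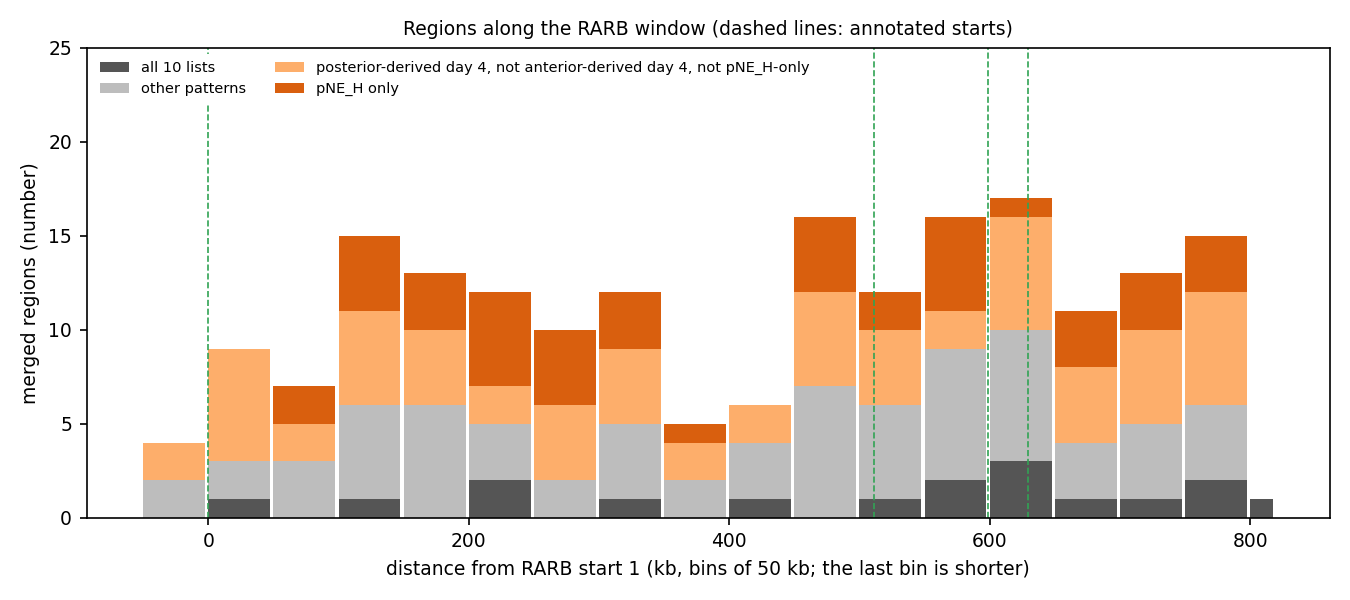
Number of merged regions in bins of 50 kb along the RARB window, by the distance from start 1 in kb, stacked by open pattern (dark grey: all 10 lists; light grey: other patterns; light orange: posterior-derived and no anterior-derived day 4 list, other than pNE_H-only; orange: pNE_H only; dashed lines: starts). The bins hold 4 to 17 regions, apart from the last, shorter bin with 1, and pNE_H-only regions appear in most bins inside the gene.

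Constant regions were fewer than elsewhere. In the window 17 regions (8.76%) were open in all 10 lists, against 16.5% of all regions, and 13 (6.7%) were open in hPSC or DE and in no later list, against 12.9%. The 17 include starts 1 and 3 and a region 1.7 kb before start 3, chr3:25426406-25426761. Some of them kept a peak while its extent changed. At chr3:25527083-25528694, 99.6 kb past start 3, peaks covered 120 bp in hPSC, 1155 in DE, 1529 in aNE, 1519 in pNE, 1387 in aNE_T, 1113 in aNE_M and 1055 in aNE_H. In pNE_T, pNE_M and pNE_H they covered 531, 400 and 643 bp, below both day 2 lists and all aNE derivatives. The opposite was seen at chr3:25593230-25594370 near the gene's end, with 1074 bp in pNE_T, 660 in pNE_M and 623 in pNE_H and 294 to 467 bp in the other 7 lists. Both regions were picked after their values had been seen.

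The gene of 768612 bp was then set beside the 122 other protein-coding genes of 0.8 to 1.2 times its length, each with 50 kb on either side. RARB had 4.95 pNE_H-only regions per 100 kb, the highest of the 123 (median of the others 2.03). Next came NALF1 with 4.48, GLIS3 with 4.18, PTPRG with 4.07, SORCS3 with 4.01 and ADGRL2 with 3.68. As a share of the window's regions, its 22.2% pNE_H-only ranked 3rd, below DACH2, the highest with 26.7% (median 12.1%). The density of all merged regions, 22.3 per 100 kb, ranked 28th (median 17.5). That of the regions open in pNE_H, 15.2 per 100 kb, ranked 14th (median 10.8). The window was thus above the median in both, and their part in the 1st place was not tested.

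By the ratio of posterior-derived to anterior-derived open regions RARB also ranked 1st, with 2.01 against a median of 1.3 and 1.88 for the next, PCDH11X. Within single media the ranks were 10th in the telencephalon medium (1.69, median 1.2), 3rd in the midbrain medium (1.63, median 1.0) and 3rd in the hindbrain medium (2.69, median 1.72). On day 2 the ratio of pNE to aNE, 1.61, ranked 24th (median 1.34), and the number of pNE-only minus aNE-only regions, 2.53 per 100 kb, ranked 19th (median 1.63). The last rank moved widely with the settings, to 82nd with 50% coverage, 67th with the widest 50% of each list, 98th among 507 genes of 0.5 to 2 times its length and 2nd among RARB and the 20 genes nearest in length. Day 4 and day 2 ranks cannot be set against each other, since RARB was selected on values of both days. These ranks describe a gene that was chosen for them, and the 1st places by pNE_H-only density and by the day 4 ratio also depend on the settings: with the widest 50% of each list RARB was 2nd and 8th, and among the 507 genes 3rd and 5th.

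**Figure D5:**
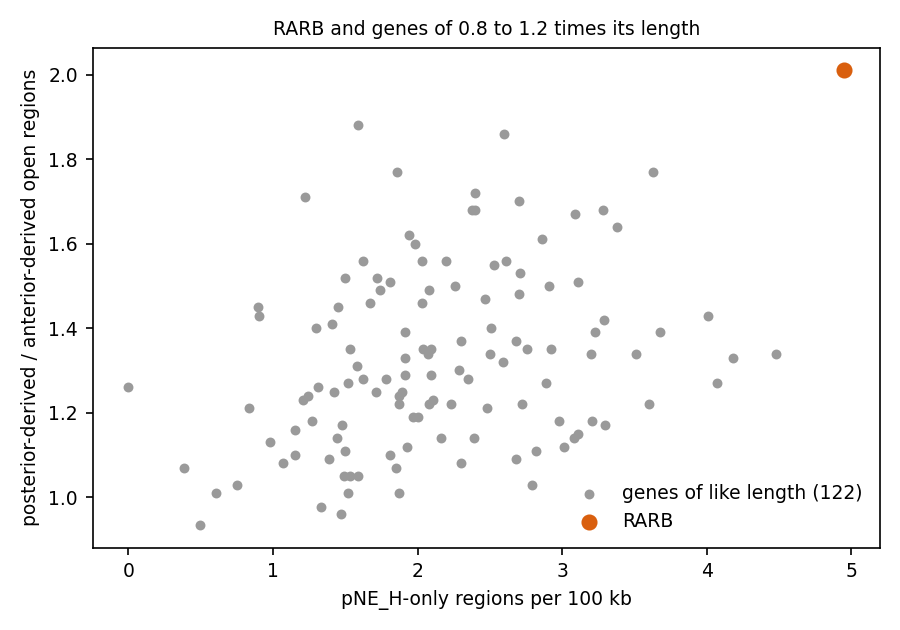
Each point is 1 gene: RARB (orange) and 122 protein-coding genes of 0.8 to 1.2 times its length (grey), by pNE_H-only regions per 100 kb of window (horizontal axis) and by the ratio of posterior-derived to anterior-derived open regions on day 4 (vertical axis). RARB lies at 4.95 and 2.01, the highest value on both axes.

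Among the 8024 protein-coding genes with at least 30 regions, the pattern of open regions over the 10 lists most like that of RARB (Pearson's r over 10 lists, each count divided by the number of open regions of its list) was that of TMEM74 with 0.97. It was followed by EPM2A (0.96), SEMA3C (0.952), RERG (0.951) and ARAP2 (0.949). SEMA3C, for example, had 43 open regions in pNE_H, 25 in pNE_T, 26 in pNE_M and 15 to 18 in the aNE derivatives. The choice of these genes fixes that they resemble RARB. The order rests on the measure, since Spearman's rank correlation shares 1 of the 5.

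Other genes of the retinoic acid pathway were counted in the same way, from a list of 27 that also has RARB's partners, enzymes and targets. More regions were open in pNE and not aNE than the reverse in 21 of the 27, fewer in 6 and equally many in 0. Among 19604 protein-coding genes 11679 (59.6%) had more, 4229 fewer and 3696 equally many. The ties lower the share of all genes and not that of the pathway, so the pathway's 77.8% cannot be set against the 59.6%. With ties left aside, 11679 of all genes had more and 4229 fewer, so the pathway's direction was the common one. CYP26A1 and CYP26C1, with 33 and 34 regions, had nearly the same counts, so the 27 may not all be separate members. The median difference of the 27 was 0.075 per region (all genes 0.042), beside 0.113 for RARB. Of the other receptors, RARA had 3 pNE-only and 4 aNE-only regions out of 37, RARG had 2 and 3 out of 34, and the heterodimer partners RXRA, RXRB and RXRG had 6 and 9 out of 73, 2 and 0 out of 22, and 6 and 3 out of 40. The difference per region was largest in RDH10, which oxidises retinol towards retinoic acid (7 against 1 of 35), and in the nuclear receptor co-regulator NRIP1 (10 against 2 of 47). It was lowest in the co-repressor gene NCOR1 (1 against 5 of 45).

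On day 4 the posterior over anterior ratio of the 27 had a median of 1.11, close to the 1.08 of all genes, and the pNE_H-only share a median of 7.07% against 6.38%. RARB, with 2.01 and 22.2%, was far from both medians, while RARA and RARG were near them, with ratios of 1.02 and 1.07. These medians are not matched for length, and those of the 122 genes of like length were higher, at 1.3 and 12.1%. HOXB1, which has known retinoic acid response elements, had a ratio of 1.52 and a pNE_H-only share of 2.04%. MEIS1 and MEIS2, homeobox genes that partner HOX proteins, had ratios of 1.49 and 1.48 with pNE_H-only shares of 15.9% and 17.9%. CYP26A1, which degrades retinoic acid, had a ratio of 1.28 and no pNE_H-only region among 33.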

How the data were processed

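The authors deposited 10 lists of peak positions (sequence name, start, end), 1 per group, without a header, score or value per library. The build hg38 and the tools FastQC, Bowtie2, MACS2, bedtools, featureCounts, edgeR and deepTools are named, without version or role, in the submitters' processing notes. The caller's threshold and how the 3 replicates were combined are not given in the sources used here, and either could move every count.

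Overlapping peaks (1 bp or more) of the autosomes, X and Y were joined over all lists (493444 regions, the same number with bedtools). A list was open at a region where it had a peak. Gene positions and promoter windows came from RefSeq tables of GRCh38.p14.

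The members, gene lists and measures were chosen with earlier results of these data known. Named regions were the 5 widest pNE_H-only ones, those open in pNE and all its derivatives but not aNE, and those open in all lists. Named genes were the first 5 by length-matched rank and by likeness, and in the pathway the extremes and the other receptors. The day 4 pathway values, the 2 regions whose extent changed, the start 3 reach and the like-length examples of the day 4 posterior pattern were chosen after their values were seen.

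No test was possible, since each group has 1 list. In simulated lists of 20000 regions, 0 open calls were wrong. Python 3.11.15, numpy 2.4.6, pandas 2.3.3, scipy 1.17.1 and matplotlib 3.10.9 were used.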

Additional observations from a re-analysis of the deposited data

Results flagged for a closer look

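Some changes in the RARB window went in opposite directions in the lists of the 2 origins, each per 100000 open regions of the list. From the telencephalon to the hindbrain medium the number of open RARB regions changed by -0.0354 in the aNE-derived lists, which is almost no change (48 and 49 regions), and by 4.17 in the pNE-derived lists (81 and 132 regions). From day 2 to the midbrain medium it changed by -0.464 in the aNE-derived lists (36 and 46 regions) and by 7.03 in the pNE-derived lists (58 and 75 regions). Each value compares 1 list with 1 list, and the difference between the origins was not tested.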

How the results depend on the processing

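With 1 list per group, no replicate could be left out, and no paired analysis was possible because the lists carry no replicate. Over 12 alternative settings, 106 of 143 recomputed values stayed within a factor of 1.5 and 37 moved farther. A reversal was defined only for the ratio of posterior-derived to anterior-derived open regions, and 0 were seen. Counts and ranks had no such label. The 43 pNE_H-only regions became 13 with each list cut to its widest 167792 peaks and 20 with the widest 50% of each list. The 27 regions open in pNE and not aNE became 15 where peaks had to cover 50% of a region, 17 in lists of equal length and 10 with the widest 50%, and the 5 with the reverse pattern became 8 in lists of equal length. The 92 regions open in posterior-derived day 4 lists only became 51 in lists of equal length, 40 with the widest 50%, and 49 without pNE_H, an alternative chosen after seeing the data (25.3% of the window against 13.8% of all regions). The ratio of posterior-derived to anterior-derived open regions lay between 1.58 (lists of equal length) and 2.4 (50% coverage). The rank by pNE_H-only regions per 100 kb became 2 with the widest 50% and 3 among 507 genes of 0.5 to 2 times the length. The rank by the ratio became 2 with 50% coverage, 8 with the widest 50% and 5 among the 507 genes. The 5 genes of most similar pattern shared 1 gene with those by Spearman's correlation and 0 with those from lists of equal length. Lists of equal length and the widest 50% hold fewer peaks by construction, and the cause of the other moves was not tested. Depth is unknown, so a missing peak cannot be told from shallow sequencing.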
